A study of Mus musculus with 10 samples.

Results

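The genes of the renin-angiotensin system were examined in hearts of *Rit1* M90I/+ mice. They were 9 of the 54532 genes in the deposited FPKM table, taken by symbol: *Agt*, *Ren1*, *Ace*, *Cma1*, *Enpep*, *Agtr1a*, *Agtr1b*, *Agtr2* and *Mas1*. FPKM counts sequenced fragments relative to the gene's length and to the size of the library, so levels can be set side by side between genes. The hearts came from 5 vehicle control mice and 5 MEKi-treated mice, and each heart was 1 poly(A)-selected RNA-seq library. From the age of 4 weeks, MEKi mice were dosed daily with trametinib, an allosteric inhibitor of MEK1 and MEK2 (1 mg/kg, 20 weeks of dosing). Control mice received the carboxymethylcellulose and Tween 80 vehicle. All 10 mice carried the same germline M90I allele of *Rit1*, a RAS-like GTPase gene mutated in Noonan syndrome, which had been recombined by a CMV-Cre deleter and is therefore present in every cell type. No wild-type hearts and no hearts sampled before treatment were analysed here.

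The renin-angiotensin system is a hormone cascade that controls blood pressure, salt balance and growth of the heart and vessels. Renin, secreted by the kidney, cuts angiotensinogen to angiotensin I, and angiotensin-converting enzyme (ACE) on the endothelial surface trims it to angiotensin II, which acts through type 1 and type 2 receptors. Chymase of mast cells makes angiotensin II by a separate route, and aminopeptidase A (*Enpep*) shortens it. A shorter peptide, angiotensin-(1-7), is the ligand of the Mas receptor.

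The libraries held 13647167 to 18474002 fragments in genes (median, 15215992), of which 24.0 to 35.0% were mitochondrial. The hearts correlated at r = 0.933 to 0.974 across genes. Atrial transcripts (6 markers, summed) ranged from 13.7 to 898.2 FPKM, and vehicle hearts 4 and 5 and MEKi-treated heart 2 stood above the other hearts at 898.2, 422.8 and 740.4 FPKM. All 6 cardiomyocyte markers were detected, with a sum of 14342 to 20089 FPKM. *Xist*, the RNA of the inactive X chromosome, averaged 5.86 ± 0.67 FPKM (SD, n = 5) with MEKi and did not exceed 0.00662 FPKM with vehicle, and the Y-linked *Ddx3y* was at 11.2 ± 0.71 FPKM in vehicle hearts and 0 in each MEKi-treated heart. X- and Y-linked transcripts thus divided the hearts exactly as treatment did, and sex and treatment cannot be told apart in any comparison given here. The methods state that littermates of both sexes were used, but neither the sex nor the litter of each heart was given. The p-values set the difference between the groups, treatment and sex together, against the spread between hearts within the groups.

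*Ace* was the member with the lowest p between the groups, and it was also the most abundant one in vehicle hearts. The gene lies on the + strand of chromosome 11 (105967945 to 105989964, GRCm38), and RefSeq gives it a somatic start at its 5′ end and a second start inside the gene. The 250 bases upstream of each start, and those of *Enpep* as the other member with an unadjusted p under 0.05, are shown 5′ to 3′ from RefSeq (GRCm38.p6), with each GGGCGG, the core of the SP1 box, in capitals.
Ace, first start, chr11:105967698-105967947, + strand: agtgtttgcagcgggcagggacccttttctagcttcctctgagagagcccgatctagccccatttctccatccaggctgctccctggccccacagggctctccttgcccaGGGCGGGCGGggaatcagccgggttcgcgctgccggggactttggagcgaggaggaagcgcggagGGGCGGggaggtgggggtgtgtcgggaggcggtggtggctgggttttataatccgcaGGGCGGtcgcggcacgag
Ace, second start, chr11:105974939-105975188, + strand: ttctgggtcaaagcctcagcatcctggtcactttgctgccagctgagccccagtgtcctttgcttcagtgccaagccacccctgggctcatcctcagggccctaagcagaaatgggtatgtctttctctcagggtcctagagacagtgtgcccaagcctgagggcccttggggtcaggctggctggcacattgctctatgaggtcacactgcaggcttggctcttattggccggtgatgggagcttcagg
Enpep, chr3:129332750-129332999, − strand: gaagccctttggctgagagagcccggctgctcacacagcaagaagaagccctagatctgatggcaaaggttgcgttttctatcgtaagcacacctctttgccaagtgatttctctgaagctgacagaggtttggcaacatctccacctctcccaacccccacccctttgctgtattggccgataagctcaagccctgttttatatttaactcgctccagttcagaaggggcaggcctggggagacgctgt
The first *Ace* window had a GC content of 67.2% and held GGGCGG at 4 places, which begin 140, 136, 75 and 18 bases before the start, the first pair overlapping each other. The second start lies 7244 bases downstream of the deposited gene start. Its window had a GC content of 58% and the *Enpep* window 52.4%, and neither held the motif on either strand. Among 32851 promoter windows of the same length, 32.74% held GGGCGG. None of the 3 windows held TGANTCA (AP-1), GCGNGGGCG (EGR) or CCGGAAG (ETS), present on either strand in 6.749, 4.697 and 6.907% of all windows. Windows were found for 8 of the 9 members, all but *Agtr1a*.

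Of the 9 members, 5 reached a mean level of 0.5 FPKM across the hearts and entered the fit across genes: *Ace*, *Agtr1a*, *Cma1*, *Agt* and *Enpep*. *Mas1* and *Agtr2* were detected below that level, and *Ren1* and *Agtr1b* had no fragment in any heart. With limma on log2(FPKM + 0.1), 0 of the 5 members passed an adjusted p of 0.05, where 0.0794% of the 12602 genes tested passed (10 genes). Of 5 sex-linked genes examined, 4 were among those 10, and without X, Y and mitochondrial genes 0 genes passed. At an unadjusted p under 0.05 there were 2 members, *Ace* and *Enpep*, and 7.62% of all genes, and voom on fragments recovered from the FPKM gave the same counts of 0 and 2 members. The groups did not overlap for 1 member, *Ace*, and 0.849% of all genes lay below the vehicle range in every MEKi-treated heart. The log2 fold changes of the 5 members, MEKi over vehicle, had a median of -0.14, with 4 lower and 1 higher, against a median of 0.01 over all genes, of which 47.9% were lower.

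**Figure D1:**
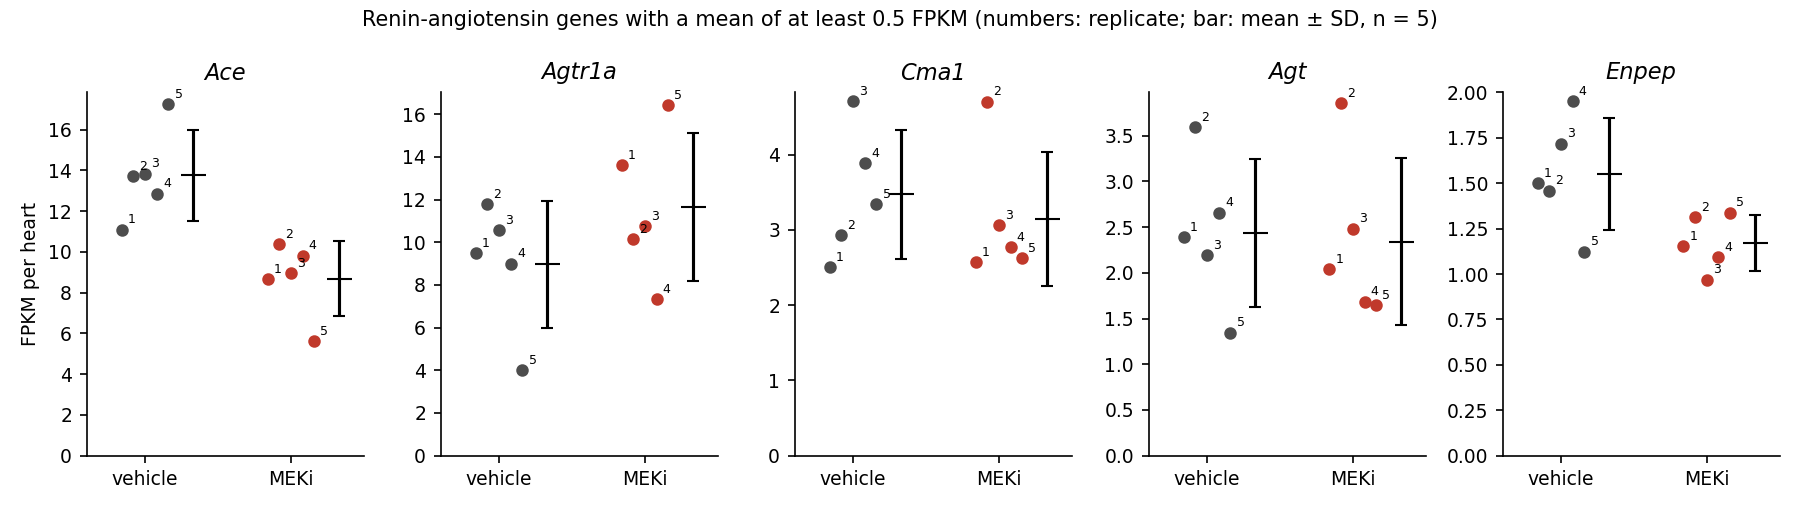
FPKM per heart (y axis) of the 5 renin-angiotensin genes that reached a mean of 0.5 FPKM, for vehicle (grey) and MEKi-treated (red) hearts, with the replicate number at each point and the mean ± SD (n = 5) as a bar. The groups are separate for *Ace*, with 11.1 FPKM as the lowest vehicle heart and 10.4 FPKM as the highest MEKi-treated heart, and overlap for the other 4 genes.

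*Agt* encodes angiotensinogen, the substrate of the cascade, which is made mainly by the liver (chromosome 8, 124556534 to 124569706, − strand). Vehicle hearts 1 to 5 had 2.39, 3.59, 2.19, 2.66 and 1.34 FPKM, and MEKi-treated hearts 1 to 5 had 2.04, 3.85, 2.48, 1.69 and 1.65 FPKM, from 37 to 125 fragments. The groups overlapped over nearly their whole range, with vehicle heart 2 and MEKi-treated heart 2 the highest and vehicle heart 5 the lowest. The means were 2.44 ± 0.813 and 2.34 ± 0.909 FPKM (SD, n = 5), which put the log2 fold change at -0.06 (SE 0.27, 95% interval -0.65 to 0.53, adjusted p = 0.969 with limma). The sign of this value turned when vehicle heart 2, MEKi-treated heart 4 or MEKi-treated heart 5 was left out, to 0.09, 0.03 and 0.04, and on a TPM scale, to 0.01. Without the 3 hearts with high atrial transcripts it was -0.44 (adjusted p = 0.821 with limma).

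*Ren1*, the renin gene (chromosome 1, 133350510 to 133360325, + strand), had 0 fragments in all 10 hearts. A count of 0 allows up to 3 fragments, or 0.101 to 0.130 FPKM depending on the heart, and this limit covers counting error only. At this depth no renin transcript was detectable in either group.

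*Ace* encodes the peptidyl-dipeptidase that makes angiotensin II and also degrades bradykinin. Vehicle hearts 1 to 5 had 11.1, 13.7, 13.8, 12.9 and 17.3 FPKM, and MEKi-treated hearts 1 to 5 had 8.66, 10.4, 8.95, 9.81 and 5.62 FPKM, from 467 to 1328 fragments a heart. The groups did not overlap, with vehicle heart 5 the highest and MEKi-treated heart 5 the lowest. The means were 13.8 ± 2.25 and 8.69 ± 1.84 FPKM (SD, n = 5), a difference of -36.8% of the vehicle mean. On the log2 scale the difference was -0.67 (SE 0.17, 95% interval -1.04 to -0.31), and it did not pass the adjustment over all genes (adjusted p = 0.314 with limma). Unadjusted, limma gave p = 0.00176 and the two-sided exact permutation test over the 252 assignments of the hearts gave p = 0.00794, the smallest it can give. After adjustment over the 24630 genes above 0, the exact p was 0.711. *Ace* ranked 69th of 12602 genes by p, and 260 genes were lower by at least as much. The study named *Ace* as higher in primary cardiomyocytes made to express RIT1 M90I, which were not examined here, and as lower in these hearts with MEKi. It thus had the values of these hearts in view, so these tests are not independent evidence of the direction of *Ace*. Of the 100-base windows of its transcripts, 1.88% also occur in *Gm11651*, an antisense gene with 0 FPKM in each heart.

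ACE in the heart is known mainly from endothelial cells, so *Ace* was also set against 8 endothelial markers (*Pecam1*, *Cdh5*, *Kdr*, *Tie1*, *Emcn*, *Vwf*, *Tek* and *Egfl7*). All 8 were detected, 7 were lower with MEKi and 0 passed the test, and their summed level was 133.1 to 227.6 FPKM in vehicle hearts and 137.4 to 172.2 FPKM in MEKi-treated hearts. Their mean log2(FPKM + 0.1) was 4.32 ± 0.30 in vehicle and 4.19 ± 0.12 in MEKi-treated hearts, a difference of -0.13 (SD, n = 5, exact permutation p = 0.437). The log2 level of *Ace* minus this mean was -0.74, -0.49, -0.09, -0.77 and -0.60 in vehicle hearts 1 to 5 and -1.16, -0.86, -1.06, -0.86 and -1.47 in MEKi-treated hearts 1 to 5. The groups did not overlap on this scale either, with vehicle heart 3 the highest and MEKi-treated heart 5 the lowest. The difference was -0.54 on the log2 scale (exact permutation p = 0.00794, n = 5 per group). With the marker mean as a covariate in the fit across genes, *Ace* differed by -0.59 (adjusted p = 0.383 with limma). In whole hearts, fewer cells of a type and less RNA per cell cannot be told apart.

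**Figure D2:**
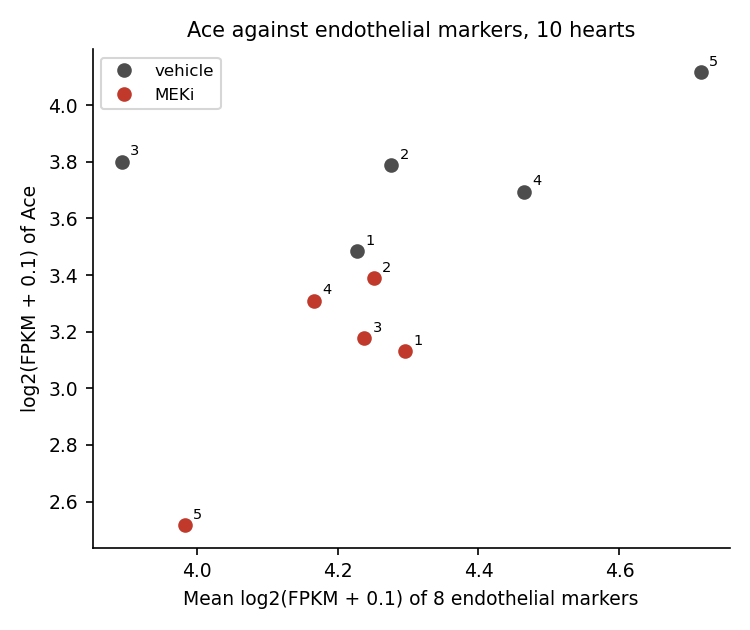
Log2(FPKM + 0.1) of *Ace* (y axis) against the mean log2(FPKM + 0.1) of 8 endothelial markers (x axis) in 10 hearts, vehicle in grey and MEKi-treated in red, with replicate numbers. The marker means overlap, at 3.89 to 4.72 in vehicle and 3.98 to 4.30 in MEKi-treated hearts, while *Ace* is lower in each MEKi-treated heart.

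*Cma1* encodes a mast cell chymase (chromosome 14, 55941451 to 55944675, − strand). In vehicle hearts 1 to 5 the level was 2.51, 2.93, 4.71, 3.89 and 3.34 FPKM, and in MEKi-treated hearts 1 to 5 it was 2.57, 4.70, 3.06, 2.77 and 2.63 FPKM, from 45 to 88 fragments. The groups overlapped, and the highest heart of each, vehicle heart 3 and MEKi-treated heart 2, had nearly the same level. The means were 3.47 ± 0.859 and 3.15 ± 0.892 FPKM (SD, n = 5), with a log2 fold change of -0.14 (SE 0.20, 95% interval -0.57 to 0.29, adjusted p = 0.905 with limma), which lay between -0.29 and -0.03 when 1 heart was left out. The 7 mast cell markers summed to 9.50 to 12.7 FPKM in vehicle and 9.40 to 13.0 FPKM in MEKi-treated hearts, with 0 of the 3 past the filter called. Their highest MEKi-treated sum was in heart 2 as well. Their mean log2(FPKM + 0.1) was instead highest in MEKi-treated heart 4, at -0.19 against -0.33 in MEKi-treated heart 2. *Kit*, *Hdc*, *Ms4a2* and *Tpsab1* were below a mean of 0.5 FPKM. *Tpsab1* was at 0 in MEKi-treated hearts 1, 3 and 5 and *Ms4a2* in MEKi-treated hearts 1 and 2, and the part of mast cell number in the *Cma1* levels was not tested.

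*Enpep* encodes aminopeptidase A, which removes the first residue of angiotensin II (chromosome 3, 129269175 to 129332720, − strand). Vehicle hearts 1 to 5 had 1.5, 1.46, 1.72, 1.95 and 1.12 FPKM, and MEKi-treated hearts 1 to 5 had 1.15, 1.31, 0.969, 1.09 and 1.34 FPKM, from 67 to 128 fragments. Vehicle hearts 1 to 4 lay above each MEKi-treated heart, and vehicle heart 5 lay among them. The means were 1.55 ± 0.309 and 1.17 ± 0.154 FPKM (SD, n = 5), a difference of -24.4% of the vehicle mean. The log2 fold change was -0.36 (SE 0.16, 95% interval -0.71 to -0.01, limma p = 0.0431, adjusted p = 0.635), and the exact permutation p was 0.0476, or 0.891 adjusted over all genes above 0. *Enpep* thus did not pass the correction, and 856 genes ranked at or before it by p. Pericytes are among the cells known to carry aminopeptidase A, and all 5 pericyte markers were also lower with MEKi, none passing the test, with sums of 39.7 to 66.3 FPKM in vehicle and 39.4 to 51.5 FPKM in MEKi-treated hearts. Their part in the *Enpep* values was not tested.

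*Agtr1a* encodes the main type 1 receptor of rodents, which couples to Gq and carries the constrictor and growth actions of angiotensin II (chromosome 13, 30336441 to 30382867, + strand). In vehicle hearts 1 to 5 the level was 9.49, 11.8, 10.6, 9.0 and 4.02 FPKM, and in MEKi-treated hearts 1 to 5 it was 13.6, 10.1, 10.8, 7.33 and 16.4 FPKM, from 163 to 719 fragments. The groups overlapped between 7.33 and 11.8 FPKM, with vehicle heart 5 the lowest of the 10 hearts and MEKi-treated hearts 5 and 1 the highest. The means were 8.98 ± 2.97 and 11.7 ± 3.48 FPKM (SD, n = 5), a log2 fold change of 0.41 (SE 0.29, 95% interval -0.22 to 1.03, adjusted p = 0.774 with limma, exact permutation p = 0.278). Without vehicle heart 5 the log2 fold change was 0.14, and without the 3 hearts with high atrial transcripts it was 0.12. The 6 fibroblast markers, of a cell type known to carry this receptor, summed to 148.7 to 234.6 FPKM in vehicle and 160.2 to 210.4 FPKM in MEKi-treated hearts, 3 lower and 3 higher.

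*Agtr1b*, the other rodent type 1 receptor gene (chromosome 3, 20314473 to 20367177, − strand), had 0 fragments in all 10 hearts, which allows up to 0.0781 to 0.1004 FPKM. None of its 2136 windows of 100 bases occurs in another gene's transcripts, *Agtr1a* included. *Agtr2*, the type 2 receptor gene that is best known from fetal tissue (chromosome X, 21484544 to 21489164, + strand), had 0 fragments in each vehicle heart and 2, 1, 0, 2 and 0 in MEKi-treated hearts 1 to 5, at or under 0.0351 FPKM. The *Agtr2* counts all lie within the limit of 3 fragments, so no difference was detectable at this depth (exact permutation p = 0.167).

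*Mas1* encodes the receptor for angiotensin-(1-7) (chromosome 17, 12841079 to 12868143, − strand). Vehicle hearts 1 to 5 had 0.567, 0, 0.161, 0.164 and 0.0787 FPKM, and MEKi-treated hearts 1 to 5 had 0.156, 0.245, 0.312, 0.0213 and 0.656 FPKM, from 0 to 27 fragments. The spread within each group exceeded the difference between the means of 0.194 ± 0.219 and 0.278 ± 0.238 FPKM (SD, n = 5, exact permutation p = 0.524). *Airn*, a long RNA transcribed across *Mas1* from the other strand, was at 1.23 ± 0.32 FPKM in vehicle and 1.19 ± 0.18 FPKM in MEKi-treated hearts. Whether counting used strand is not given in the sources used here, so fragments of *Airn* and *Mas1* cannot be told apart and the *Mas1* level is uncertain.

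**Figure D3:**
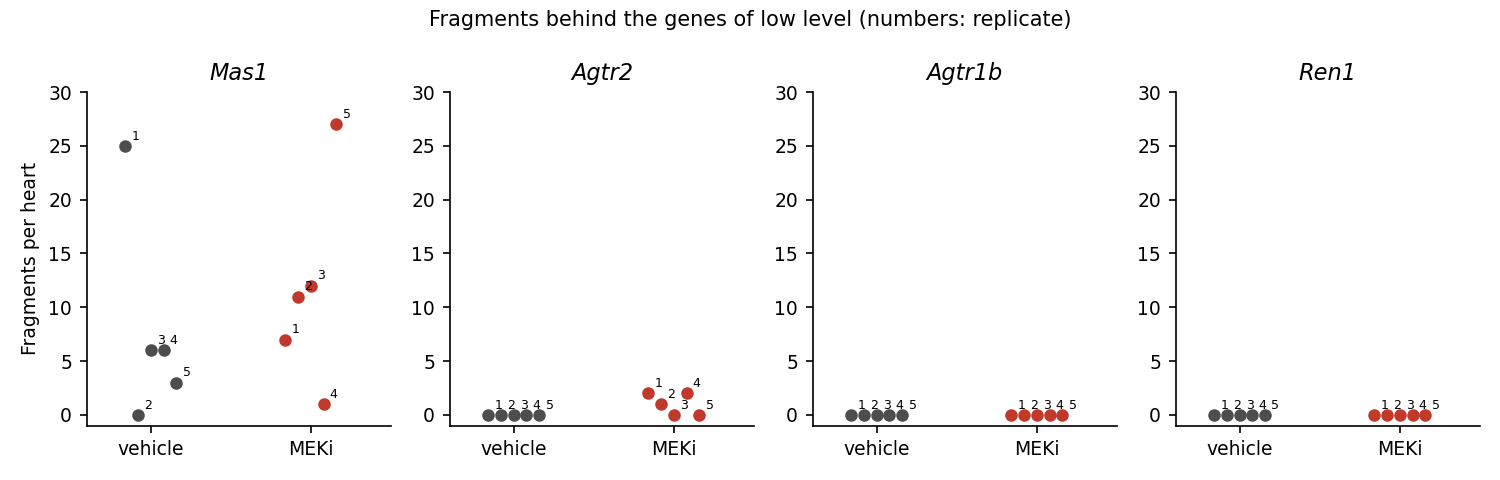
Fragments per heart (y axis) for the 4 members of low level, vehicle in grey and MEKi-treated in red, with replicate numbers. *Ren1* and *Agtr1b* are at 0 in every heart, *Agtr2* has at most 2 fragments and *Mas1* from 0 to 27.

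The mean FPKM of the members, which is a level per gene length, ranked in the order *Ace*, *Agtr1a*, *Cma1*, *Agt*, *Enpep*, *Mas1* and *Agtr2* in vehicle hearts. In MEKi-treated hearts *Agtr1a* came before *Ace*, by less than the SD of *Agtr1a*. *Ace* was above *Agtr1a* in 5 of 5 vehicle hearts and in 2 of 5 MEKi-treated hearts, and the ratio of their levels ran from 4.29 in vehicle heart 5 to 0.342 in MEKi-treated heart 5. *Agtr1a* was above *Cma1* in 10 of 10 hearts. *Cma1* was above *Agt* in 9 of 10 hearts, with vehicle heart 2 the exception, and the means of these neighbours differed by about the SD of either or less in MEKi-treated hearts and by little more in vehicle hearts. *Agt* was above *Enpep* in 10 of 10 hearts. Of the receptor fragments, *Agtr1a* had 4510 over the 10 hearts, *Mas1* 98, *Agtr2* 5 and *Agtr1b* 0. *Ace* was above *Cma1* in each heart, by 2.14 to 5.17 times. *Mcpt4*, a further mast cell chymase gene outside the members, averaged 4.94 FPKM in vehicle and 3.96 FPKM in MEKi-treated hearts.

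*Ace* and *Agtr1a* varied in opposite directions among hearts of the same group. With group means removed, Pearson's r of their log2 levels was -0.71 over the 10 hearts (exact permutation within groups, 14400 arrangements, p = 0.0257). The correlation of their ranks, taken within each group of 5 and centred, was -0.55 (exact permutation p = 0.145). All 10 pairs of the 5 members past the filter were examined, and after adjustment over them the p-values were 0.257 and 0.726, so the relation did not pass. Pearson's r was -0.82 without MEKi-treated heart 5 and vehicle heart 1, the farthest from the median of *Ace* once group means are removed. Without vehicle heart 5 and MEKi-treated heart 5, which have the most extreme levels of both genes, it was -0.54 over 8 hearts. The other 9 pairs had adjusted p-values of at least 0.406 by exact permutation of r.

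**Figure D4:**
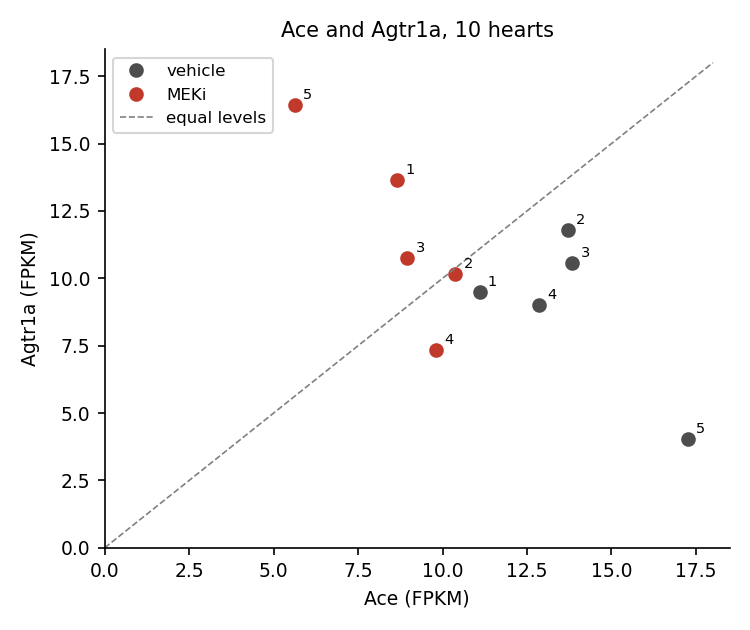
FPKM of *Agtr1a* (y axis) against FPKM of *Ace* (x axis) in 10 hearts, vehicle in grey and MEKi-treated in red, with replicate numbers and a dashed line where both levels are equal. Vehicle heart 5 (17.3 and 4.02 FPKM for *Ace* and *Agtr1a*) and MEKi-treated heart 5 (5.62 and 16.4 FPKM) lie at opposite ends, and the 5 vehicle hearts lie below the line.

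The genes whose levels varied most like each member were taken among the 10704 genes that averaged 1 FPKM or more, by Pearson's r of log2 levels over the 10 hearts with group means removed. These values describe hearts that share library and depth, and no test was attached to the best of so many genes. For *Ace* they were *Palmd* (r = 0.963), *Pmp22* (0.939) and *Fuca2* (0.926). For *Agtr1a* they were *Ptcd2* (0.986), *Il13ra1* (0.978) and *Lbh* (0.970), and for *Agt* they were *Cited4* (0.944), *Igsf1* (0.918) and *Parp16* (0.911). *Enpep* varied most like *Tbcel* (0.959), *Gtf2e1* (0.946) and *6430548M08Rik* (0.939), and *Cma1* most like *Diaph1* (0.922), *Fam124a* (0.912) and *Gnao1* (0.894). No gene was named for 2 members.

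Among 13 other enzymes that make or break angiotensin peptides, 11 passed the filter, 5 lower and 6 higher, and 0 passed the test with limma or with voom, with 0 at an unadjusted p under 0.05 with limma. The 4 with the lowest p were *Nln* (neurolysin, log2 fold change -0.33), *Dpp3* (0.15), *Mcpt4* (a mast cell chymase, -0.28) and *Anpep* (aminopeptidase N, 0.23). The median was 0.00. Cathepsin G (*Ctsg*) was listed at 0.

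Of the 19 genes of angiotensin receptor coupling and regulation, 18 passed the filter, 9 lower and 9 higher (median, -0.01 on the log2 scale). The test was passed by 1 of them, and by 0.0794% of all genes tested. *Rgs4*, a GTPase-activating protein that shuts off Gq and Gi signals downstream of the type 1 receptor, had 3.76, 3.11, 3.95, 2.83 and 4.04 FPKM in vehicle hearts 1 to 5 and 1.36, 1.82, 1.56, 2.17 and 1.89 FPKM in MEKi-treated hearts 1 to 5. The groups did not overlap, and *Rgs4* fell by 0.97 on the log2 scale (SE 0.15, limma adjusted p = 0.0357), from 3.54 ± 0.537 to 1.76 ± 0.312 FPKM (SD, n = 5). *Rgs4* itself was called in 8 of the 23 alternative analyses that gave it a value, at -1.05 to -0.72 on the log2 scale in all 23. Without X, Y and mitochondrial genes it was not called, with the same log2 fold change and an adjusted p of 0.0855 from limma. The call was lost when any of vehicle hearts 1, 2, 3 and 5 or MEKi-treated hearts 1, 2, 3 and 5 was left out, where the log2 fold change was -1.05 to -0.89 over all hearts left out in turn and the adjusted p from limma reached 0.141. *Rgs5*, a pericyte relative of *Rgs4*, had a log2 fold change of -0.31, *Plcb4* and *Plcb3*, phospholipases activated by Gq, had -0.27 and 0.20, and none of these passed.

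Angiotensin II drives the release of aldosterone. Of 6 genes of the mineralocorticoid pathway, aldosterone synthesis included, 3 passed the filter and 0 passed the test. *Sgk1*, a kinase induced by the mineralocorticoid receptor, was at 11.9 ± 3.09 FPKM in vehicle and 7.90 ± 1.24 FPKM in MEKi-treated hearts (log2 fold change -0.56, limma adjusted p = 0.463), and *Nr3c2*, the receptor itself, was at 2.30 ± 0.591 and 3.31 ± 0.422 FPKM (0.54, limma adjusted p = 0.478). *Sgk1* and *Nr3c2* differed in opposite directions and were the 2 genes of this list with an unadjusted p under 0.05, against 7.62% of all genes. The aldosterone synthase gene *Cyp11b2* and *Cyp11b1* were listed at 0 in each heart. In the kinin branch, where ACE degrades bradykinin, 2 of 9 genes passed the filter. *Cpm*, a carboxypeptidase that trims kinins, differed by -0.63 on the log2 scale (adjusted p = 0.401 with limma). Its groups did not overlap (0.714 to 1.16 FPKM in vehicle and 0.547 to 0.684 FPKM in MEKi-treated hearts). Over all genes tested, 0.849% lay below the vehicle range in every MEKi-treated heart.

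NADPH oxidases are effectors of the type 1 receptor, and of 6 subunit genes examined 4 passed the filter. All 4 had a negative log2 fold change, against 47.9% of all genes, with 0 called, 1 at an unadjusted p under 0.05 and a median log2 fold change of -0.36. *Ncf1*, an organizing subunit, was at 2.75 ± 0.813 FPKM in vehicle and 1.75 ± 0.309 FPKM in MEKi-treated hearts (log2 fold change -0.60, limma adjusted p = 0.461), and *Ncf4* and *Cybb* had -0.45 and -0.27. The groups did not overlap for *Ncf1* (lowest vehicle heart 2.22 FPKM, highest MEKi-treated heart 2.10 FPKM) and overlapped for the others. Over all genes tested, 0.849% lay below the vehicle range in every MEKi-treated heart. *Cyba*, the most abundant of the 4, was at 56.1 ± 16.2 and 54.7 ± 10.1 FPKM, with a log2 fold change of -0.0026. Macrophages carry the phagocyte form of the oxidase, and all 6 of 6 macrophage markers were also lower, with 0 called, 2 at an unadjusted p under 0.05, a median of -0.36 and sums of 104.4 to 184.3 FPKM in vehicle and 100.3 to 120.3 FPKM in MEKi-treated hearts. Their part in the oxidase values was not tested.

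**Figure D5:**
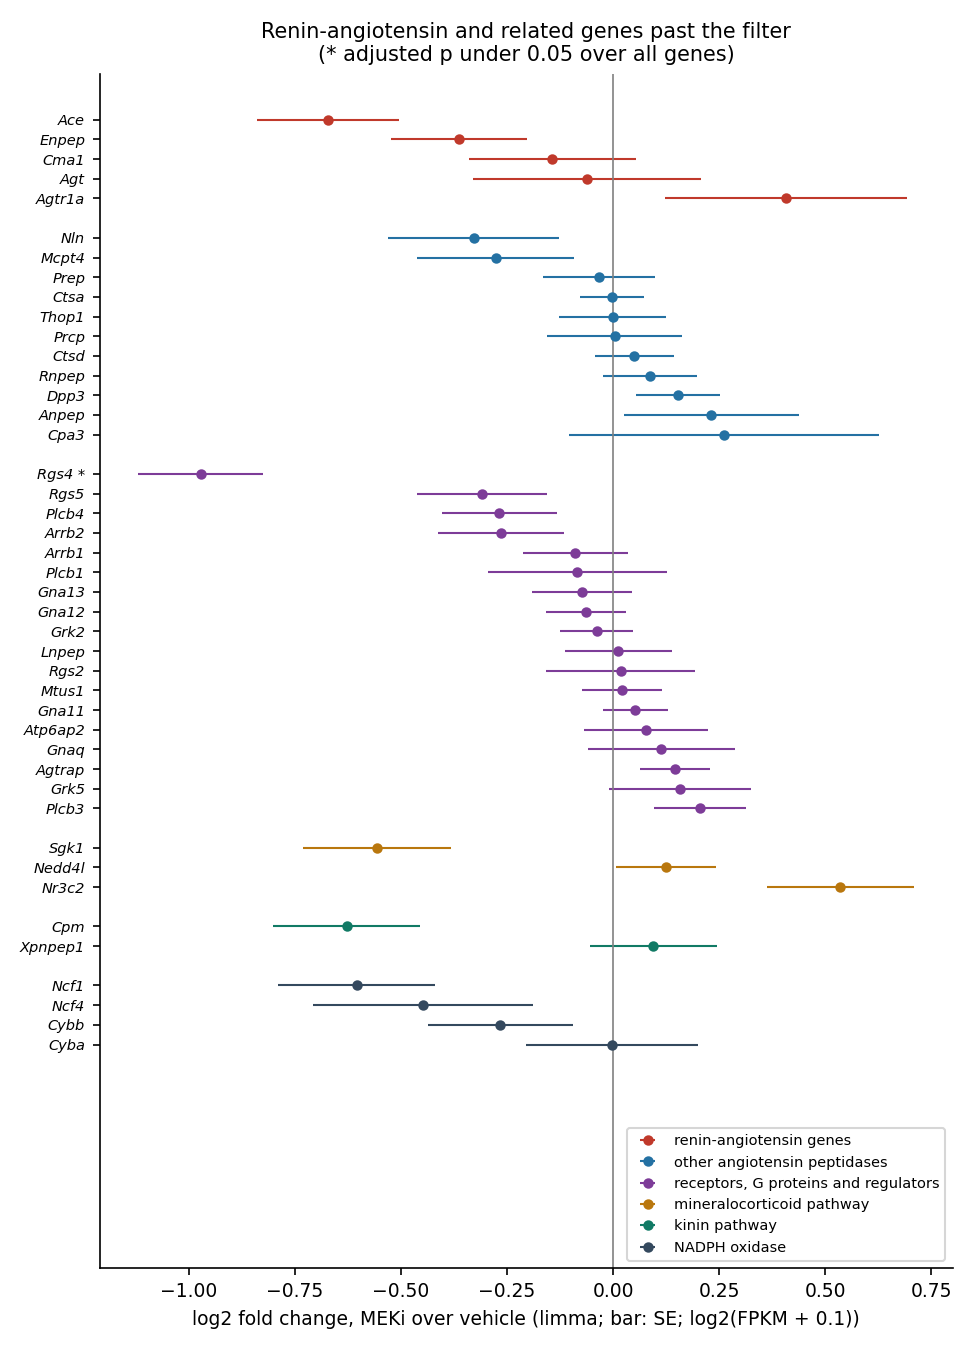
Log2 fold change, MEKi over vehicle, with its SE from limma (x axis) for the renin-angiotensin genes and the related genes past the filter, coloured by list. *Rgs4*, marked with an asterisk at -0.97, is the gene with an adjusted p under 0.05, and *Ace* at -0.67 and *Agtr1a* at 0.41 are the outermost members.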

How the data were processed

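RNA-seq of 10 hearts was analysed, grouped by the treatment and replicate number in the labels. The authors deposited FPKM per gene and heart. The labels' processing notes name fastp, STAR 2.5, HTSeq 0.6.1 and mm10, and the paper's methods state no test for these libraries. Gene coordinates equalled GENCODE M21 (GRCm38) for 98.3% of 54409 genes and for all 9 members. The product of FPKM and length was a whole multiple of 1 step for 100% of values (tolerance 0.05 of a step, multiples up to 1000), which gave the fragments per gene, used for depth and for the limit of 3 fragments behind a 0.

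Log2(FPKM + 0.1) was compared with limma 3.58.1 in R 4.3.3 (lmFit, eBayes with a trend, two-sided) for the genes averaging 0.5 FPKM or more, with Benjamini-Hochberg adjustment over these and a threshold of 0.05. This scale understates the change of low genes. Single values were compared by two-sided exact permutation (numpy 2.4.6, Python 3.11.15). The 95% intervals used the t quantile from scipy 1.17.1. The script was tested on simulated data. Genes named are the members, up to 4 of each list by lowest p, the 3 genes most like each member, *Xist* and *Ddx3y*. *Cyp11b1*, *Cyp11b2*, *Ctsg*, *Airn*, *Gm11651* and marker genes were named after their values were seen. Members and lists were chosen with earlier results of these data known. Alternatives were other pseudocounts (1 and 0.01), filters, scales and eBayes settings, array weights, protein-coding genes alone, a replicate block, an endothelial covariate, the markers *Pecam1* and *Cdh5* alone, and leaving out each heart. Promoter windows were RefSeq's. A planned comparison of *Ace* with 1 other gene is not reported here.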

Additional observations from a re-analysis of the deposited data

Results flagged for a closer look

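*Cma1* in MEKi-treated heart 2 was at 4.70 FPKM, and the other 4 MEKi-treated hearts lay between 2.57 and 3.06 FPKM. The gap to the nearest heart was 0.770 of the group's range, above Dixon's 95% limit for 5 samples. Chance marks about 1 in 20 groups whose hearts differ. Of the 22 groups examined, those at 0 in each heart (*Ren1* and *Agtr1b* in both groups, *Agtr2* in vehicle) could not be marked. Fewer than 1.1 would thus be marked by chance, against the 1 found.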

How the results depend on the processing

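No member passed the adjusted threshold in any of the 24 alternatives, with 1 or 2 members at an unadjusted p under 0.05. *Ace* stayed lower in all 24, at -0.75 to -0.52 on the log2 scale, the same range as when 1 heart was left out, with adjusted p from 0.191 (voom) to 0.737. *Enpep*, *Cma1* and *Agtr1a* kept their direction in each alternative that gave a value (-0.47 to -0.28, -0.29 to -0.03 and 0.14 to 0.56 without 1 heart). *Agt* turned to 0.01 (0.0146) on the TPM scale, was -0.44 without the 3 hearts with high atrial transcripts, and ran from -0.25 to 0.09 without 1 heart (0.0911, 0.0349 and 0.0423 without vehicle heart 2, MEKi-treated heart 4 and MEKi-treated heart 5). The TPM scale moved the median of all genes from 0.01 to 0.09. The receptor list's count of 1 fell to 0 with no filter, a mean of at least 5 FPKM, the TPM scale, quantile normalization, eBayes without a trend, the replicate block, 3 hearts with high atrial transcripts left out and X, Y and mitochondrial genes left out, and was 0 to 1 without 1 heart. *Rgs4*, the gene counted, averaged 2.65 FPKM, under the filter of 5 FPKM, and had no value there. Without X, Y and mitochondrial genes its log2 fold change stayed at -0.97. Its unadjusted limma p was 2.8e-05 with and without those genes, and its adjusted p was 0.0855 without them. The cause in the other settings was not tested. The other 4 lists had a count of 0 throughout.

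*Ace* relative to the endothelial markers was -0.54 with p = 0.0625 by exact sign flips of the 5 numbered pairs (replicate block), the smallest p that test can give, -0.59 with the covariate, and -0.60 to -0.43 without 1 heart. Same-numbered hearts did not deviate together (r from -0.154 to -0.021, and 0 of 10 hearts correlated best with their own number). These values show no pairing by number, though they cannot exclude a weak one. Under the block the genes called went from 10 to 4. A mean of at least 5 FPKM called 2, array weights 18, and the fit without X, Y and mitochondrial genes 0 (924 at an unadjusted p under 0.05). With limma, leaving out 1 heart called 5 to 13. Voom on fragments, the 3 atrial-high hearts left out and X, Y and mitochondrial genes left out were chosen after seeing the data, as were the values of *Rgs4* under each alternative and the correlation of *Ace* and *Agtr1a* without vehicle heart 5 and MEKi-treated heart 5. Depth limits *Ren1*, *Agtr1b*, *Agtr2* and *Mas1*.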
